A study of Homo sapiens with 4 samples.

Results

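The genes described here are 44 cell cycle and DNA replication genes, on a fixed list of names drawn up with earlier results of these data known. A peak belonged to one of them when the peak's deposited gene symbol was in the list. All protein-coding RefSeq genes number 19443, and 14483 genes of any kind were named in at least 1 of the 2 peak lists. RNA recovered with YBX1, an RNA-binding protein, was sequenced in PANC-1, a human pancreatic cancer line in long use, and each deposited peak list sets 1 YBX1 immunoprecipitate (IP) against the input that carries its replicate number. The 4 samples were YBX1 IP (replicates 1 and 2) and input taken without antibody (replicates 1 and 2).

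Every sample, the inputs included, came from PANC-1 cells that had first received vesicles ("CAFs-derived Evs" in the labels) and were crosslinked at 254 nm with 400 mJ/cm2. Untreated cells and a control antibody were not analysed here, so a peak reports IP over input in treated cells only and says nothing of what the vesicles changed. Nothing in the labels places the replicates in separate cultures, so agreement between them may be technical. Of the markers of epithelial cells, 4 of 6 had a peak in both lists that overlapped (KRT8, KRT18, KRT7 and CDH1). By name none of 11 fibroblast markers and none of 6 markers of acinar pancreas did, but 2 of the fibroblast markers held overlapping peaks of both lists between the first and last base of their transcripts. As many as 8 of the fibroblast and all 6 of the acinar markers stood in no row of either list.

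Before DNA is copied, the origin recognition complex, CDC6 and CDT1 load the MCM2 to MCM7 helicase onto replication origins, and cyclin-dependent kinases then fire those origins and keep them from firing again in the same cycle. D-type cyclins with CDK4 and CDK6 inactivate RB1 and free E2F factors, which switch on many of the replication genes. Cyclins A and B with CDK1, together with the Aurora and Polo kinases, then drive mitosis. YBX1, which carries a cold-shock domain, packages messenger RNA and influences its stability and translation, and it is named for the Y-box, a promoter element that contains the inverted CCAAT sequence.

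Replicate 1 had 27669 peaks with 12243468 reads inside them, and replicate 2 had 25492 peaks with 3140931 reads, a ratio of 3.9. The deposited values of each peak are its reads, a fold of IP over input, and a false discovery rate (FDR) in percent. Reads are whole numbers and were taken here as counts in the IP library, not scaled to library size. The headers do not state this, nor how the fold was scaled. FDR was high for the listed genes in both lists, but FDR over all peaks is not given here, so this may not be particular to them. The FDR lay between 17.32% and 20.71% for the 83 peaks that named them in replicate 1 and between 29.46% and 100% for the 90 in replicate 2, 52 of which stood at 100%. Of the 26 overlapping pairs inside the listed genes that are described below, 16 had a replicate 2 peak at 100%. Their median reads were 43 in replicate 1, against 45 over all peaks, and 29.5 in replicate 2, against 15 over all peaks. Their median fold was 9.87 in replicate 1, against 9.33 over all peaks, and 16.8 in replicate 2, against 25.31 over all peaks. Several folds on few reads stood in fixed proportion to the reads. In replicate 1 folds of 10.77, 12.21 and 15.8 came from 15, 17 and 22 reads. In replicate 2 folds of 33.75, 101.25 and 118.12 came from 8, 24 and 28 reads. Such folds add nothing to the read count, and ranking by fold can place shallow peaks above deep ones. Intervals given with reads are exact 95% Poisson intervals, which cover counting error only, since PCR copies of reads are not independent molecules. The library kit was for DNA and the lists carry no read strand, so overlapping genes cannot be told apart. Where 2 values of a pair are given without naming the replicates, that of replicate 1 comes first. With 1 value per gene and replicate no test was made. The main counts are set beside those over all protein-coding genes, and reads, folds and classes beside those of all peaks or pairs.

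The listed genes were named more often than protein-coding genes in general, though most of them had no overlapping peaks. Replicate 1 named 31 of 44 (70.5%), against 46.3% of all protein-coding genes, and replicate 2 named 35 (79.5%), against 44.2%. Both lists named 26 (59.1%), against 32.7%. A gene was counted as shared when a peak naming it in one list overlapped, by 1 bp or more, a peak naming it in the other. That held for 13 of 44 (29.5%), against 21.4% of all protein-coding genes. Shared exon peaks, with both overlapping peaks in the exon class, were found in 6 (13.6%), against 9.56%. The shared genes were CDT1, MCM5 and MCM7 among the licensing and helicase genes, POLE, RRM1 and TOP2A at the fork, CCND1, CCND2 and CDC25A of G1, and CCNB2, MKI67, AURKA and PLK1 of G2 and mitosis. By role the shared share was 3 of 10 for licensing and helicase, 3 of 8 for fork and nucleotide supply, 3 of 13 for G1 and G1/S and 4 of 13 for G2 and mitosis. A further 13 genes (29.5%) were named in both lists by peaks that lay apart, against 11.3% of all protein-coding genes. Among genes named in both lists, 13 of the 26 listed genes were thus shared, against 4164 of 6354 protein-coding genes, a larger share. Replicate 1 only named 5 (11.4%), against 13.6%, and replicate 2 only named 9 (20.5%), against 11.5%. No row of either list named POLA1, FOXM1, CDKN1A or CDKN1B (9.09%), against 42.2% of all protein-coding genes. POLA1 is the catalytic subunit of the polymerase that starts each new strand, FOXM1 a transcription factor of mitotic genes, and CDKN1A and CDKN1B encode the kinase inhibitors p21 and p27. Median gene length, on GRCh38, was 20314 bp for the listed genes and 25256 bp for protein-coding genes. The protein-coding genes were not limited to those expressed in PANC-1, and the part of length or of transcript level in these counts was not tested.

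**Figure D1:**
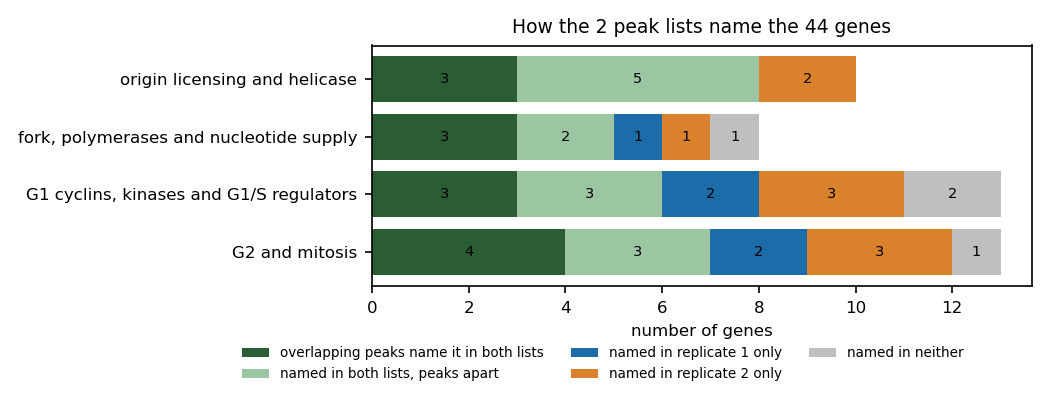
Number of listed genes (horizontal axis) in each of 4 roles, by how the 2 peak lists name them. Overlapping peaks name 3, 3, 3 and 4 genes from the top row down, and the 4 genes named in neither list lie outside the licensing and helicase row.

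Counting by gene symbol missed several genes and credited others with peaks of their neighbours. In many cases the submitters' annotation gave a peak inside one gene to a neighbour whose start lies after it, though not always: the same place in CCND3 carried the name of MED20 in one list and of CCND3 in the other. Of the 79 peaks of replicate 1 and 93 of replicate 2 whose middle lay between the first and last base of a listed gene's transcripts (its bounds), 25 and 27 were named for other genes, 46 of them in the upstream class and 6 in the promoter class, in 17 of the 37 listed genes that held a peak (45.9%), against 39.6% of protein-coding genes. Those were 31.6% and 29.0% of the inside peaks, against 24.8% and 21.8% in protein-coding genes. Conversely, 54 of the 83 peaks that name these genes in replicate 1, and 66 of the 90 in replicate 2, lay inside them. The same share over all peaks is not given here, so this may not be particular to these genes. The upstream class took 26.5% and 17.8% of the peaks naming these genes, against 21.6% and 19.3% of all peaks. The intergenic class took 4.82% and 6.67%, against 12.6% and 12.4%. Counted by bounds, 17 of the 40 genes with deposited bounds (42.5%) held overlapping peaks of both lists, against 35.9% of the 11228 protein-coding genes named in either list. The 2 counts had 11 genes in common. Bounds alone added CCND3, E2F1, BUB1B, CDC25B, MCM2 and MCM4, and the name alone held CCND2 and PLK1, so that 19 genes were shared one way or the other.

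MCM7, the helicase subunit whose introns carry a microRNA cluster, had the highest shared fold of the 44 genes by the smaller of the 2 lists. With an overlap of at least 50% of both peaks that value was 11.56, and MCM5 at 18.46 was highest. The leading pair, at chr7:99711148-99712384 and chr7:99711408-99711935, held 245 reads with a fold of 20.07 in replicate 1 and 105 reads with a fold of 65.34 in replicate 2, but it lay upstream of the gene. Another upstream pair held 271 and 76 reads, and the middle of its replicate 1 peak lay inside AP4M1, a neighbouring gene. Inside the gene 2 pairs were found. One, named for MIR106B, held 118 reads (97.7 to 141) with a fold of 12.65 in replicate 1 and 39 reads (27.7 to 53.3) with a fold of 12.55 in replicate 2. The other, named for MCM7 in the promoter class, held 100 and 45 reads with folds of 6.14 and 15.84. At the end of the gene replicate 1 had a peak of 207 reads and fold 9.51 at chr7:99690289-99691131, and replicate 2 had one of 385 reads and fold 32.16 at chr7:99688950-99691289. A second replicate 1 peak, at chr7:99689173-99689868 beyond the end of MCM7, held 524 reads with a fold of 13.98. It lay within the span of that replicate 2 peak. The peak of replicate 2 covered the deposited span of MIR25, chr7:99691182-99691266, and neither of these replicate 1 peaks reached it. Among the deposited peaks named for MIR25, MIR93 or MIR106B no other overlapped the hairpin it names. The guide strands of the 3 microRNAs are shown because peaks carry the names of MIR106B and MIR25 in both lists and that of MIR93 in replicate 1. They are RefSeq sequences on GRCh38.p14, minus strand, with the seed (bases 2 to 8) in capitals, and the first 2 share theirs while miR-25 has another.
hsa-miR-106b-5p (chr7:100094043-100094063): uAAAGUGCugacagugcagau
hsa-miR-93-5p (chr7:100093815-100093837): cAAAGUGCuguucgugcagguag
hsa-miR-25-3p (chr7:100093571-100093592): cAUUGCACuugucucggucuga

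Promoter sequences are shown for the genes with overlapping peaks of the promoter class in both lists, MKI67 and MCM7, and for CCNB2, which was added after its values were seen because of a replicate 2 peak of high fold. That CCNB2 peak held 28 reads, and its fold was among those in fixed proportion to reads. Each sequence runs from 250 bases before to 50 after the annotated start, as given by RefSeq on GRCh38.p14, while peak positions are on hg19. Capitals mark CCAAT or its reverse complement ATTGG. Peaks overlap the window of MKI67 in both lists and that of CCNB2 in replicate 2, while the promoter class pair of MCM7 lies 1605 and 1371 bp after a start and thus beyond it.
MKI67 (chr10:128126374-128126673, minus strand): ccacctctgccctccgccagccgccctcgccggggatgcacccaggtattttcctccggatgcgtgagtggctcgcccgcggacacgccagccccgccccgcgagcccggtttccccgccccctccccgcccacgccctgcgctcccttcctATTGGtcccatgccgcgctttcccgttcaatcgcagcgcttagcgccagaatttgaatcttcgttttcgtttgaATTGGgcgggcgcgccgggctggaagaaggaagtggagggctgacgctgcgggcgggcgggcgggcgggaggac
MCM7 (chr7:100101348-100101647, minus strand): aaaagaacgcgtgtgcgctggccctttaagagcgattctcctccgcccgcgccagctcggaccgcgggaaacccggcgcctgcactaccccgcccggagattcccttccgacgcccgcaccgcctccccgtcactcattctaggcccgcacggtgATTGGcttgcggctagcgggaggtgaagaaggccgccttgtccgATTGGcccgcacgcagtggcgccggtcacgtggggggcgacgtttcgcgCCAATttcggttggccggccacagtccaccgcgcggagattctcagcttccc
CCNB2 (chr15:59104896-59105195, plus strand): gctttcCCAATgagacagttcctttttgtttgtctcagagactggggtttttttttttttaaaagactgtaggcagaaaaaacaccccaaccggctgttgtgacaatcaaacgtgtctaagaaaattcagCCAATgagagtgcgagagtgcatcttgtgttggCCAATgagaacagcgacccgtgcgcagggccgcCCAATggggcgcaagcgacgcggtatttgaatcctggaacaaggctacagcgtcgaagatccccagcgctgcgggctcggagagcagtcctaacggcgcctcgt

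CCAAT stood in 4 places in the CCNB2 window, 3 in that of MCM7 and 2 in that of MKI67, on either strand. Of the 37 listed genes with a promoter sequence, 26 (70.3%) held it, against 36.5% of 15517 protein-coding promoters of the same length. GGCGGGAA, a form of the E2F site, was found in 6 (16.2%), against 4.3%, and TTTGAA, a form of the cell cycle homology region, in 9 (24.3%), against 12.1%. CATC, the DNA form of a short motif known for YBX1 in RNA, stood in 25 (67.6%), against 73.1%. Both strands were searched with reverse complements TTCCCGCC, TTCAAA and GATG, and matches of different motifs can share letters, as TTTGAA and ATTGG share an A in the MKI67 window. A match is only a match of letters in the DNA window and was not set against the peaks.

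MCM5, a helicase subunit, had 3 overlapping pairs inside it. The last of them, at chr22:35820088-35820574 and chr22:35819928-35820642, sat 164 and 210 bp from the transcript end, with 72 reads and a fold of 18.46 in replicate 1 and 48 reads and a fold of 19.41 in replicate 2. Of the MCM5 pairs it had the folds nearest each other. The second held 25 and 42 reads, and the first only 16 and 6, near the smallest peaks of each list. Replicate 1 peaks of 157 and 500 reads that also name MCM5 lay inside HMOX1, the heme oxygenase gene next to it. CDT1, which brings the helicase to origins, had an exon peak near its end. It held 126 reads (105 to 150) with a fold of 11.52 in replicate 1 and 283 reads (251 to 318) with a fold of 13.0 in replicate 2, at chr16:88874495-88875348 and chr16:88874424-88876306 on hg19. Its middle lay 86.4% and 94.5% of the way along the gene. Replicate 2 thus had more reads although its library held far fewer in peaks. Its peak was also longer, at 1883 bp against 854 bp in replicate 1.

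MCM2 and MCM4, also helicase subunits, entered only by their bounds. The MCM2 pair lay 98.4% of the way along the gene in both lists and was named for PODXL2, with 50 reads (37.1 to 65.9) and a fold of 19.39 in replicate 1 and 28 reads (18.6 to 40.5) and a fold of 16.57 in replicate 2. The fold of MCM2 was thus slightly higher in replicate 1, as it was in 4 of the 26 pairs inside the listed genes. Both MCM4 pairs were named for PRKDC, whose start lies next to MCM4. One held 33 reads in replicate 1, against 102 in replicate 2. The other, 95.5% and 95.8% along, held 168 (144 to 195) and 395 (357 to 436) reads with folds of 5.44 and 5.83. The count was higher in replicate 2 for both, beyond the counting intervals.

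The other licensing genes had peaks that did not meet. MCM3 had 5 peaks inside it in replicate 1, the end peak with 149 reads and a fold of 9.91 (named for IL17F), and a single exon peak of 32 reads and fold 22.86 in replicate 2. MCM6 had 3 peaks in replicate 1, all named for LCT and of 17 to 52 reads, and a single exon peak of 20 reads in replicate 2. MCM10, an initiation factor, had peaks of 15 and 6 reads inside it in replicates 1 and 2. Apart from the end peak of MCM3, these held at most 52 reads. In CDC6, the helicase loader, replicate 2 had 5 peaks named for RARA, and the one at chr17:38447254-38447993 held 85 reads with a fold of 133.2 and an FDR of 30.22%. Replicate 1 had no peak there. The 2153 reads of the replicate 1 peak named for CDC6 lay in WIPF2. ORC1, the largest subunit of the origin recognition complex, held 1 peak inside it, of 51 reads and fold 26.57 in replicate 1, named for PRPF38A, while the 178-read peak naming ORC1 in replicate 2 lay inside PRPF38A itself.

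At the fork, the highest smaller fold belonged to RRM1, the large subunit of ribonucleotide reductase, at 12.21. That value came from a replicate 1 peak of 17 reads and was among the folds in fixed proportion to reads. When only peaks with a deposited score (minus 10 log10 of p) of at least 50 were kept, the smaller fold of RRM1 was 8.51, below TOP2A at 8.74. With a score of 200 or more it was 5.5. Moreover 3 of its 4 shared pairs lay inside STIM1, the gene before it. Their reads were 265, 53 and 2687 in replicate 1, against 41, 11 and 518 in replicate 2. The single pair inside RRM1, at chr11:4133111-4133346 and chr11:4133069-4133351, held 17 reads (9.9 to 27.2) and 7 reads (2.81 to 14.4). RRM1 therefore rests on few reads once the STIM1 pairs are set aside. Its end peak of 448 reads was found in replicate 1 only. POLE, the catalytic subunit of the leading-strand polymerase, shared 1 pair of 15 and 14 reads, among the smallest of all the overlapping pairs inside these genes. TOP2A, the topoisomerase that untangles copied DNA, had a pair 59.4% and 59.0% along the gene with 195 reads (169 to 224) and a fold of 8.74 in replicate 1 and 148 reads (125 to 174) and a fold of 14.15 in replicate 2. Its end peak, too, with 521 reads, stood in replicate 1 alone.

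The remaining fork genes had no shared peak. RRM2, the small reductase subunit, had 510 reads in an exon peak 87.5% along in replicate 1 and 24 reads at its start in replicate 2. RFC1, a subunit of the clamp loader, had exon peaks of 22 and 52 reads at separate places. The sliding clamp PCNA was named once, in replicate 2, by a peak of 20 reads and fold 84.37 whose middle lay 427 bp before its start, inside CDS2. TYMS, which makes thymidylate, was named in replicate 1 by 3 peaks of 12 to 16 reads, all before its start. PCNA and TYMS thus had no peak inside their bounds in either list.

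CDC25A, the phosphatase that activates CDK2, had an end exon pair, 869 and 965 bp from the transcript end, at chr3:48198598-48200475 and chr3:48198599-48200665. It held 155 reads (132 to 181) with a fold of 7.17 in replicate 1 and 339 reads (304 to 377) with a fold of 24.81 in replicate 2. CDC25A was thus higher in replicate 2 by reads as well as by fold. CCND2, cyclin D2, was shared by name alone. Its overlapping pairs, of 85 and 172 reads and of 1276 and 809 reads, were intergenic peaks on chromosome 12 between 4206716 and 4208655, before the gene's first base at 4382901, and the gene itself held 1 peak, of 14 reads, in replicate 1. CCND1, the G1 cyclin D1, had the most reads of any listed gene. Its end exon peak, at chr11:69465804-69469302 and chr11:69465449-69469327 on hg19, held 7028 reads (6865 to 7194) with a fold of 4.28 in replicate 1 and 4491 reads (4361 to 4624) with a fold of 8.27 in replicate 2. Its fold was below the median of all peaks in both lists. A second pair near the start held 212 and 117 reads with folds of 4.49 and 12.7.

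The other G1 genes that entered by bounds were E2F1 and CCND3. E2F1, the transcription factor released by RB1, held 2 pairs that both lists named for NECAB3: 405 reads (367 to 446) and a fold of 11.75 in replicate 1 with 468 reads (427 to 512) and a fold of 22.26 in replicate 2 for the end pair, and 36 and 50 reads for the other. CCND3, cyclin D3, had a pair 99.5% along in both lists with 369 and 235 reads, which replicate 1 named for MED20 and replicate 2 for CCND3.

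RB1, the pocket protein that holds E2F in check, had no peak in replicate 1 and 6 inside it in replicate 2, of which 5 named it. The exon peak at chr13:48936894-48937179 held 24 reads with a fold of 101.25 and an FDR of 38.71%, and the other exon peaks held 41, 21 and 10 reads. E2F3 had an end exon peak of 453 reads and fold 9.9 in replicate 2 and peaks of 12 and 14 reads in replicate 1. CCNE1, cyclin E1, had 78 reads in an end exon peak of replicate 2 and 11 reads before its start in replicate 1. RB1, E2F3 and CCNE1 thus had their deepest peaks in replicate 2. Among the kinases the picture was the opposite for CDK4, with 1 peak of 223 reads and fold 3.64 in replicate 1 only, and for CDK2, where a replicate 1 peak of 797 reads near its end was named for RAB5B and replicate 2 had 82 reads at its start. CDK6 had 3 peaks in replicate 2, of 6, 6 and 8 reads.

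MKI67, the proliferation marker Ki-67, had 4 shared pairs, the most of the mitotic genes. Its largest, at chr10:129900878-129907759 and chr10:129900802-129907717 on hg19, spanned 6882 and 6916 bp and held 1685 reads (1605 to 1767) with a fold of 8.37 in replicate 1 and 2154 reads (2064 to 2247) with a fold of 14.08 in replicate 2. Its end exon pair held 273 and 339 reads and its intron pair 389 and 476. Its smaller fold of 15.8 rests on the promoter pair and was 8.37 with an overlap of at least 50% and 5.58 with a score of 200 or more. All 3 pairs inside MKI67 had more reads in replicate 2. The promoter pair, whose window is printed above, held 22 and 23 reads with folds of 15.8 and 27.08, and its middles lay 39 and 262 bp before the start.

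AURKA, the kinase of spindle poles, had an end exon pair at chr20:54944364-54945767 and chr20:54944390-54946147 with 758 reads (705 to 814) and a fold of 6.19 in replicate 1 and 838 reads (782 to 897) and a fold of 10.72 in replicate 2. A second pair inside it, of 102 and 132 reads, was named for CSTF1, while a pair of 190 and 120 reads named for AURKA lay inside CSTF1. The peak names of these neighbours were thus crossed. PLK1, the Polo kinase, was shared only through a peak upstream of its start, of 2372 and 1075 reads, that lies in no gene for which the lists give bounds, and its inside peaks, of 63 reads in replicate 1 and of 37 and 39 reads in replicate 2, did not overlap. CCNB2, cyclin B2, shared a pair of 119 reads (98.6 to 142) and 107 reads (87.7 to 129) with folds of 4.05 and 11.48. In replicate 2 alone it also had the peak of 28 reads and fold 118.12 at chr15:59397257-59397546, its middle 118 bp after the deposited start, and its promoter window is printed above.

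CDC25B and BUB1B entered by their bounds. CDC25B, a phosphatase that activates CDK1, held a pair 92.4% and 91.9% along with 4710 reads (4576 to 4846) and a fold of 3.43 in replicate 1 and 1097 reads (1033 to 1164) and a fold of 6.32 in replicate 2, the lowest fold among the replicate 1 peaks of pairs inside these genes. BUB1B, a spindle checkpoint kinase, held a pair of 96 and 39 reads named for the BUB1B-PAK6 readthrough. Of the mitotic genes with no pair inside them and no shared name, CCNB1 had 200 reads at its end in replicate 1, named for CENPH, and 131 reads with a fold of 26.94 near its start in replicate 2. CDC20, an activator of the anaphase-promoting complex, had 195 reads at its start in replicate 2 and only peaks of 18 and 28 reads, before its start, in replicate 1. BUB1, a checkpoint kinase, had 5 peaks in replicate 2, of 25 to 106 reads, 4 of them named for SNORD132, and 3 in replicate 1 of which the end peak held 93 reads and overlapped a replicate 2 peak whose middle lay outside the bounds. CCNA2, cyclin A2, had peaks of 43 and 38 reads at separate places inside it. AURKB had 181 reads and a fold of 15.53 in replicate 1 only, and CDK1 was named once, by an intergenic replicate 2 peak of 6 reads.

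**Figure D2:**
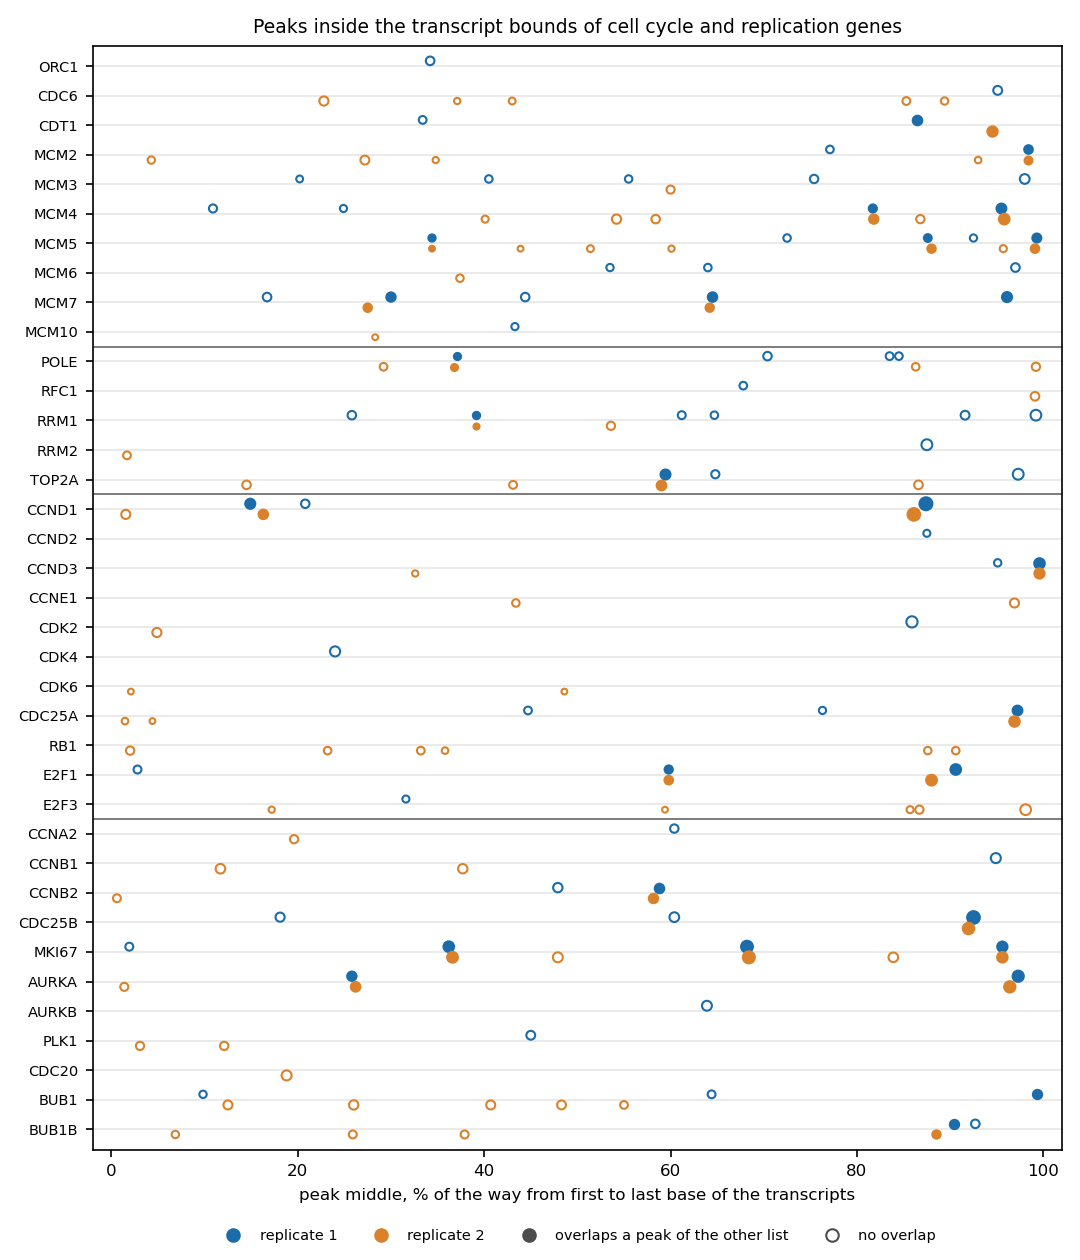
Place of each peak inside the listed genes, as percent of the way along the transcript bounds (horizontal axis), with replicate 1 above and replicate 2 below each line, point size growing with the log of reads, and filled points overlapping a peak of the other list. Filled points gather to the right and none lies in the first 10%.

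Along the genes, overlapping peaks stood toward the end, as they did in protein-coding genes at large. Of the 26 peaks in each list that overlap a peak of the other with both middles inside the listed gene, 38.5% of those in replicate 1 and 34.6% of those in replicate 2 lay in the last 10% of the bounds, against 32.4% and 32.7% of such peaks in protein-coding genes. In replicate 1 the end peaks of MCM7 and BUB1 also overlapped a replicate 2 peak whose middle lay outside, and with them the share was 42.9% of 28, against 32.6%. None of the 26 lay in the first 10% in either list, against 9.34% and 9.14%. Over all inside peaks the last 10% held 27.8% in replicate 1, against 24.2%, and 17.2% in replicate 2, against 20.5%. The first 10% held 3.8% in replicate 1, against 11.8%, and 12.9% in replicate 2, against 11.8%. The median place was 64.7% along in replicate 1, against 65.9%, and 43.9% in replicate 2, against 62.3%. The 2 lists thus differed in where all inside peaks of these genes lay. The exon class took 33.7% of the peaks naming these genes in replicate 1, against 33.1% of all peaks, and 36.7% in replicate 2, against 31.1%.

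The reads of overlapping peaks divided differently between the replicates in these genes than in the lists as a whole. For the 26 pairs inside the listed genes the ratio of replicate 1 reads to replicate 2 reads had a median of 1.09, with quartiles of 0.775 and 1.81, and 12 of 26 (46.2%) had fewer reads in replicate 1. Over all 8734 overlapping pairs the median was 3.02, with quartiles of 2.0 and 4.67, and 4.52% had fewer reads in replicate 1. The 12 pairs inside listed genes lay in 7 genes, CDT1, MCM4, MCM5, CDC25A, E2F1, MKI67 and AURKA. The ratio was below the median of all pairs in 24 of 26, and its exact 95% interval, from counting error alone, lay wholly below that median in 20 and wholly above it in 1, the CDC25B pair with a ratio of 4.29 (4.02 to 4.59). The same count of intervals over all pairs is not given here, and the 26 pairs lay in 17 genes. Among the lowest 5% of all pairs by the read ratio stood 12 of the 26. The lowest were the MCM4 pairs at 0.324 (0.212 to 0.483) and 0.425 (0.353 to 0.511), CDT1 at 0.445 (0.358 to 0.551) and CDC25A at 0.457 (0.376 to 0.555). Reads were not scaled to peak length, and the CDT1 peaks spanned 854 bp in replicate 1 and 1883 bp in replicate 2.

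Deeper pairs, and a single value per gene, gave a difference in the same direction. For pairs with a geometric mean of 100 reads or more, the median ratio was 0.865 over 15 pairs inside the listed genes and 3.17 over all 4323. Taking 1 median per gene gave 1.32 over 17 listed genes, 6 of them below 1 (35.3%), against 3.03 over 4020 protein-coding genes, of which 3.28% were below 1. In the last 10% of the bounds the median was 1.2 over 8 listed pairs, against 3.34 over 2319 pairs in protein-coding genes. The 10 pairs that name listed genes but lie outside them had a median of 2.27, and the 3 inside STIM1 had ratios of 6.46, 4.82 and 5.19. The other cell cycle and replication genes, which were not among the 44, had a median of 1.47 over 83 pairs, with 26.5% below 1.

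The deposited fold did not divide in the same way. In 22 of the 26 pairs inside the listed genes the fold was higher in replicate 2. The median of replicate 1 fold over replicate 2 fold was 0.6, with quartiles of 0.456 and 0.878. That median was 0.448 over 7349 pairs inside protein-coding genes and 0.45 over all pairs, where the quartiles were 0.297 and 0.662. A higher fold in replicate 2 was thus common to the lists at large, and the listed genes leaned to it less. In the other cell cycle and replication genes the median was 0.546. The fold is relative to input, and input reads were not used here, so a difference between replicates in transcript level and one in recovery with YBX1 cannot be told apart from the read counts. No test was made, since each pair gives a single ratio from 1 pair of replicates.

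**Figure D3:**
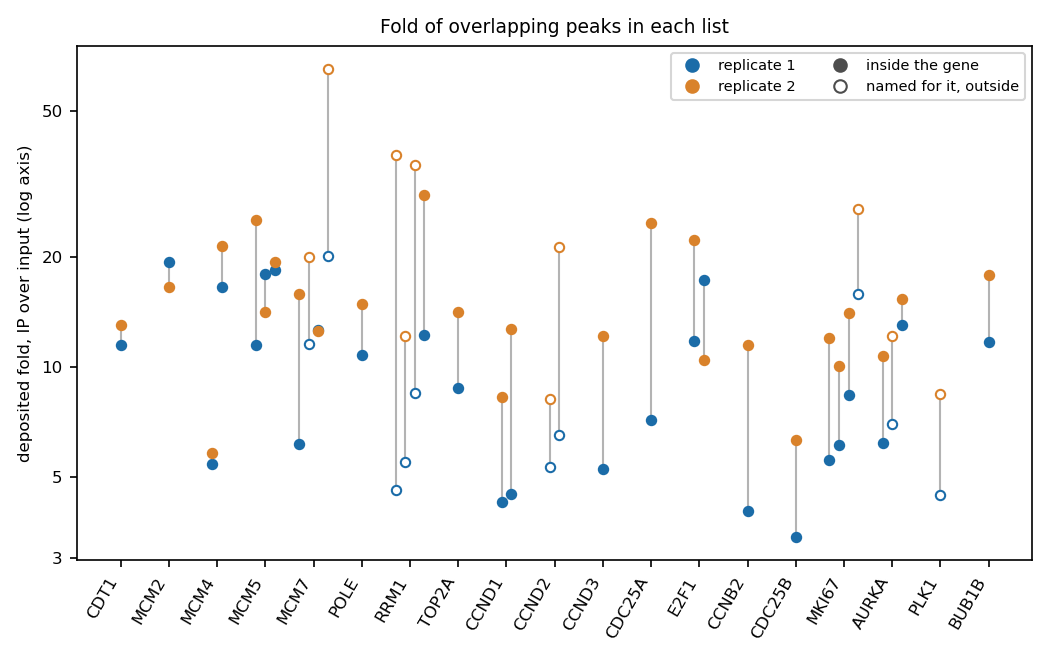
Deposited fold of IP over input (vertical log axis) for each overlapping pair, by gene, with replicate 1 and replicate 2 joined by a line, filled inside the gene and open where the peak only names it. Folds inside the genes run between 3.43 and 19.39 in replicate 1 and between 5.83 and 29.53 in replicate 2.

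**Figure D4:**
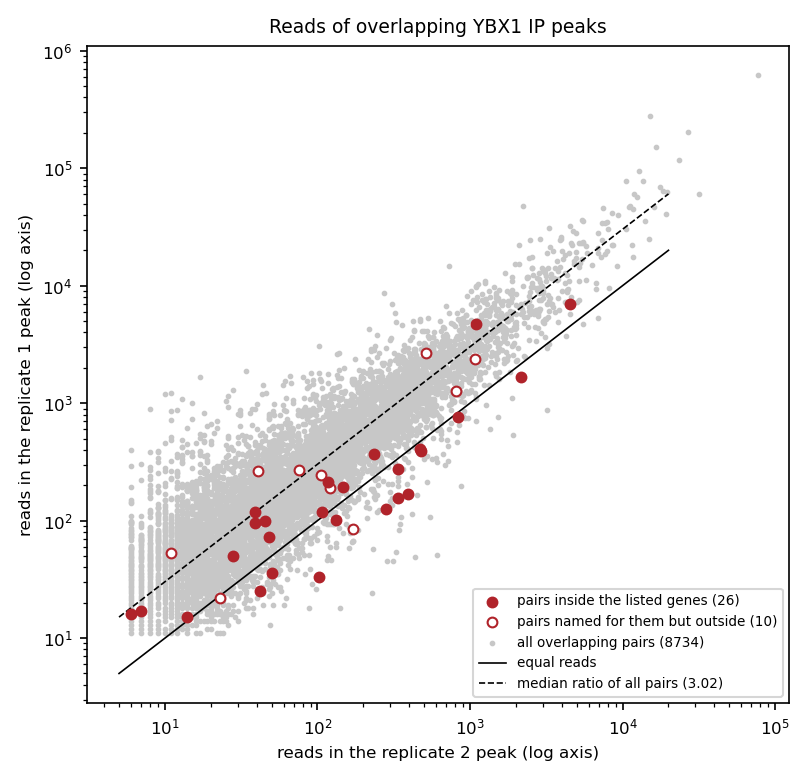
Reads in the replicate 1 peak against reads in the overlapping replicate 2 peak (both axes log), for pairs inside the listed genes (red), pairs named for them but outside (open) and all 8734 pairs (grey). Most red points lie near the line of equal reads, below the dashed line at the median ratio of 3.02.

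Of 134 other cell cycle and replication genes, 44 (32.8%) had a shared peak, against 21.4% of protein-coding genes, and 23 had a shared exon peak. By role these were 7 of 21 for licensing, firing and helicase, 10 of 33 at the fork, 8 of 29 in G1 and 19 of 51 in G2, mitosis and checkpoints. The highest smaller fold was that of NCAPD3, a condensin subunit, with 46.67 and 65 reads in replicate 1 and 57.33 and 51 reads in replicate 2, at different peaks. POLD1 and POLD2, subunits of the lagging-strand polymerase, had folds of 27.28 and 24.35 in replicate 1 and of 120.78 and 23.85 in replicate 2. The E2F repressors E2F7 and E2F8 had exon folds of 25.13 and 24.41 in replicate 1 and of 75.94 and 96.67 in replicate 2, on 18 to 35 reads. DNMT1, the maintenance DNA methyltransferase, had 26.57 and 21.07, and RPA2 and RPA1, which coat single-stranded DNA, had 18.67 and 17.95 in replicate 1 and 33.75 and 18.75 in replicate 2. Apart from POLD2, the replicate 1 folds given here came from peaks of 25 to 65 reads. They too stood in fixed proportion to reads, so the ranking does not single out deep peaks.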

How the data were processed

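The submitters' processing notes name cutadapt 1.9.1, Bowtie2 2.2.4 and the build hg19, while the sources used here do not name the peak caller. Per the file headers, each of the 2 deposited lists holds the read count of a peak (taken as unscaled), its fold (a ratio of IP over input), a score of minus 10 log10 of p, and an FDR in percent. The authors' lists repeat a peak for each transcript, in 60488 and 55416 rows. The replicates were not pooled. Rows were collapsed to unique peaks per symbol with Python 3.11.15, pandas 2.3.3, numpy 2.4.6 and scipy 1.17.1. Peaks overlapped at 1 bp or more, and the overlap code was tested on made-up peaks. Overlapping transcripts of a symbol were joined into bounds. A pair for the read ratio is a replicate 1 peak with the replicate 2 peak it overlaps most. The 44 genes and all lists were chosen with earlier results of these data known. Every listed gene is named, shared ones first within a role and by the smaller of their highest shared folds in the 2 lists, and of the 134 others the 8 with the highest smaller fold are named. Overlap of 50%, scores of 50 and 200, a fold of 4, current symbols, fewer classes and each replicate alone were tried. No input reads and no hg19 sequence were used here.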

Additional observations from a re-analysis of the deposited data

How the results depend on the processing

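The counts kept within 1.5 times under an overlap of 50% (11 genes with a shared peak, CDT1 and POLE lost), a score of 50 (9), a fold of 4 (13), current symbols (13) and without upstream and intergenic peaks (10, with CCND2, PLK1 and RRM1 lost). The genes lost at a score of 50 were CCNB2, CDT1, PLK1 and POLE. A score of 200 or more left 5 genes with a shared peak, 6 named in both lists, 2 with a shared exon peak, 5 by bounds and 5 of the other pathway genes. The smaller fold moved by over 1.5 times for MCM7 and MKI67 with an overlap of 50% and for RRM1 and MKI67 at a score of 200, as given with those genes. Leaving out 1 replicate removes the demand for overlap by construction: 31 to 35 genes then counted as shared and as named, 17 to 19 for exon peaks, 33 to 33 by bounds and 87 to 92 of the other genes. The median read ratio inside the listed genes was between 0.817 and 1.32 under the 5 settings added after the data were seen, against 2.82 to 3.17 in protein-coding genes. No paired analysis was possible because the results come from no test and each list already sets IP against input of the same replicate number. Peaks under 20 reads (17 of 83 and 31 of 90 that name these genes) are the least precise. Peak sequences were not used here.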
